A study of Mus musculus with 12 samples.

Results

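Serpins are a family of proteins that mostly act as suicide inhibitors of proteases: a flexible loop is offered as bait, and once cut it folds into the body of the serpin and drags the trapped protease with it. Hepatocytes secrete a large set of them into plasma, where they hold back coagulation, fibrinolysis, complement and inflammatory proteases, while a few members have lost inhibition and carry hormones or act as signals. The liver-secreted serpins other than the alpha1-antitrypsin genes were chosen by gene symbol in the platform annotation. Of 10 genes on the list, 9 had a probe set of their own, and together they gave 11 probe sets of the 22626 tested. The annotation pairs no probe set with Serpina3k, which was not analysed here.

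The data are 12 one-colour Affymetrix arrays of mouse liver RNA, each from a male mouse aged 6 weeks, with 3 arrays labelled as biological replicates in each of 4 groups. Every animal had a human alpha1-antitrypsin transgene, inducible and specific to hepatocytes, in the mutant Z form or the wild-type M form; their strain and the driving promoter are not given in the sources used here. The Z on group (title group Z4) and the M on group (M4) drank water without doxycycline and expressed the human protein. The Z off group (Z1) and the M off group (M1) had doxycycline at 40 µg/mL in their drinking water from conception, the non-expressing state of the design. Expression cannot be told apart from the absence of doxycycline, nor can the Z form be told apart from the line that carries it. Values are linear probe set signals scaled array by array, and signals of different probe sets are not comparable as levels. In whole liver, fewer cells of a type and less RNA per cell cannot be told apart.

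The arrays had Pearson correlations of log2 signal between 0.924 and 0.976 over the brighter 11313 probe sets. Hepatocyte markers were bright on every array, with Alb at 16217 or more and Apoa1 at 17558.5 or more. The array's beta-actin 3′ to 5′ ratio ranged from 2.44 to 5.16 for Z on, 2.18 to 2.53 for Z off, 3.09 to 4.38 for M on and 2.72 to 3.89 for M off. The signal of the 18S ribosomal RNA control was 914 to 1492 for Z on, 93.9 to 373 for Z off, 227 to 768 for M on and 568 to 710 for M off. It separated Z on from Z off, Z on from M on and Z off from M off without overlap. The actin ratio also separated Z off from M off without overlap. The part of either control in the results was not tested. The replicate marked 3 of Z on stood apart from all other arrays in the inflammatory genes Saa1 and Lcn2, and from the other Z on arrays in clock genes. Saa1, a major acute phase protein, read 6737 on it and at most 1590 on any other array, and Lcn2 read 761 against at most 54.9. Dbp, a clock output factor, read 80.1 on it against 1365 and 1385 on the other Z on arrays, while Z off readings ran from 23.8 to 107. The M arrays read higher than Z off for Dbp, from 1094 to 1556 for M on and from 839 to 1103.5 for M off. Arntl, a core clock activator, read 80.8 on it against 4.00 and 22.5 on the other Z on arrays.

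Among the measured serpins Serpina12 had the largest difference between the lines. It encodes vaspin, a kallikrein inhibitor known in rats as a product of visceral fat. The 250 bases before its RefSeq start are shown because the results turn on this gene (chr12:104044444-104044693, minus strand, GRCm38.p6), written from 5′ to 3′ on the strand of the gene.
Serpina12: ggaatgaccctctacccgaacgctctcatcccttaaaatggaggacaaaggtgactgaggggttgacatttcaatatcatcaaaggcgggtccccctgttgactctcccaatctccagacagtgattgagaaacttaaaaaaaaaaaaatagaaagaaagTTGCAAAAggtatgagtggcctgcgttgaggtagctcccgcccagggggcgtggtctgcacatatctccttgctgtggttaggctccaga
The capitals mark the match to TTGCNNAA, a pattern of the C/EBP factors, from 90 to 83 bases before the start. On either strand that pattern occurs in 9.56% of all 32851 RefSeq promoter windows of this length, and the match describes the letters only. Both strands were also searched for the STAT pattern TTCNNNGAA, the forkhead pattern TGTTTAC, the nuclear receptor pattern AGGTCA, the HNF4 pattern CAAAGTCCA, the HNF1 pattern GTTAAT, the TATA box TATAAA and the E-box CACGTG, with no match in this window. Of the 9 measured genes 6 had a promoter entry, and the only other matches were AGGTCA in Serpinf1 and in Serpinf2, a pattern held by 14.0% of all windows.

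The bright Serpina12 probe set read 1352, 715 and 885 for Z on and 1477, 2064 and 1544 for Z off. It read 211, 272 and 217 for M on and 924, 956 and 495 for M off. Every Z on array lay below every Z off array, every M on array lay below every M off array, and at each state every Z array lay above every M array. Its means were 984 ± 330 for Z on, 1695 ± 321 for Z off, 233 ± 33.7 for M on and 791 ± 257 for M off (SD, n = 3 each). From high to low the order was Z off, Z on, M off and M on, and the neighbouring Z on and M off groups overlapped.

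**Figure D1:**
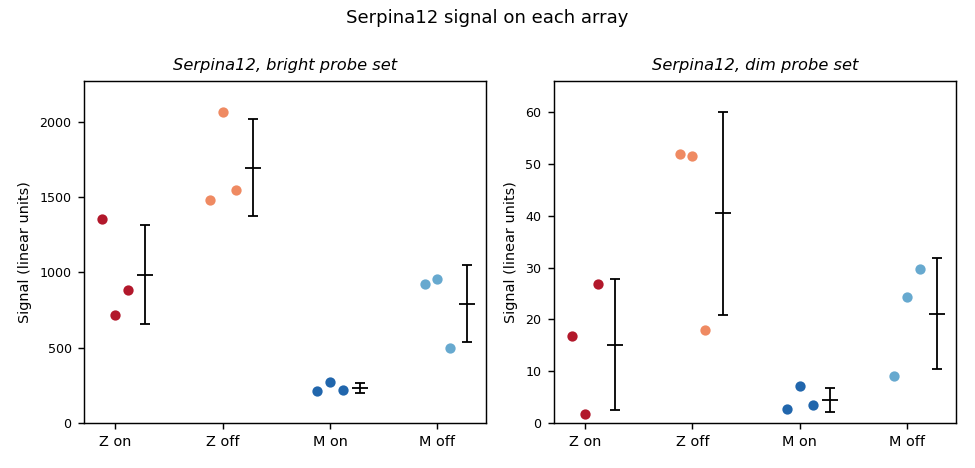
Signal of both Serpina12 probe sets on each array (vertical axis, linear units from 0) in the 4 groups; points are arrays, and the bar beside them is the mean with its SD. On the bright probe set the 3 M on arrays sit between 211 and 272, below all other arrays.

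Averaged over both states, the Z line read 3.01-fold higher than the M line (95% interval 2.12 to 4.27; log2 difference 1.59, SE 0.23). This passed the test over all probe sets (limma with Benjamini-Hochberg adjustment, adjusted p = 0.0466), and it was the single serpin probe set called in any of the 7 comparisons fitted. Among all probe sets that line comparison called 20, or 0.0884%. The call was marginal: it was lost without each of the 12 arrays in turn (adjusted p from 0.0611 to 0.131), while the log2 difference stayed between 1.43 and 1.69. It was also lost with quantile normalization (adjusted p = 0.0543), with array medians centred (adjusted p = 0.0535) and with the replicate number as a block (adjusted p = 0.115).

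Within each state the line difference did not pass over all probe sets. Serpina12 was 4.09-fold higher in Z on than in M on (95% interval 2.49 to 6.71, limma adjusted p = 0.123). It passed there under 3 alternatives, with log2(signal + 16) (adjusted p = 0.0392), with an intensity trend and robust variances (adjusted p = 0.00245) and with only the brighter 11313 probe sets (adjusted p = 0.0166). Z off read 2.21-fold higher than M off (95% interval 1.35 to 3.62, limma adjusted p = 0.418).

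Expression of either human form went with lower Serpina12 readings, short of the threshold. The M on arrays had a log2 difference of -1.71 from M off (SE 0.32, limma adjusted p = 0.275), so M off read 3.27-fold higher (95% interval 1.99 to 5.37). This difference passed with an intensity trend and robust variances (adjusted p = 0.0182). The corresponding difference of Z on from Z off was -0.82 (SE 0.32, 95% interval -1.53 to -0.11, limma adjusted p = 0.743). The difference between these 2 changes was 0.89 (95% interval -0.12 to 1.90, limma adjusted p = 0.933), so the data do not settle whether the lines differ in this. Averaged over lines the on arrays differed from the off arrays by -1.27 on the log2 scale (SE 0.23, limma adjusted p = 0.299).

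The other Serpina12 probe set was dim, from 1.80 to 52.0 over the 12 arrays. It read 16.7, 1.80 and 26.9 for Z on, 52.0, 51.6 and 17.9 for Z off, 2.70, 7.10 and 3.50 for M on and 9.10, 24.3 and 29.8 for M off. The M groups did not overlap and the Z groups did. Its log2 differences were -1.96 for Z on from Z off (SE 0.95) and -2.21 for M on from M off (SE 0.95), with limma adjusted p-values of 0.799 and 0.942. Over the 12 arrays its log2 signal correlated with that of the bright probe set at r = 0.70, a description of arrays that share a scale.

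Adipocyte markers were near the bottom of the scale on these arrays: Adipoq read between 2.20 and 20.9 and Lep between 0.70 and 12.6. The summed signal of the 5 adipocyte markers measured, of 7 listed, was 78.6 to 99.4 for Z on, 86.7 to 104 for Z off, 89.6 to 129 for M on and 84.5 to 141 for M off, and no marker was at 0 on every array. Stellate cell markers moved with the on and off states as Serpina12 did. Their sum over all 10 listed markers was 1467 to 1890 for Z on against 2246 to 2623 for Z off, and 1579 to 2176 for M on against 2474 to 2772 for M off. In each line 9 of the 10 read lower in the on group, none passed the test, and their part in the Serpina12 result was not tested. Of 5 erythroid markers measured (9 listed), Alas2 alone passed the test. This heme synthesis enzyme read 137 to 211 for Z on, 1119 to 1456 for Z off, 231 to 254 for M on and 254 to 307 for M off, with a log2 difference of -2.88 for Z on from Z off (limma adjusted p = 0.00159). It was also called for Z off from M off, at 2.22 (limma adjusted p = 0.00832), and for on from off over both lines, at -1.52 (limma adjusted p = 0.0158). The log2 difference of M on from M off was -0.16 and was not called. Alas2 carried the summed erythroid signal, 203 to 364 for Z on against 1202 to 1573 for Z off and 333 to 373 for M on against 350 to 402 for M off. The Z on and Z off ranges of Klf1, Hba-a1, Slc4a1 and Epb42 overlapped. Endothelial markers (11 of 11 measured) summed to 1399 to 1601 for Z on against 1047 to 1164 for M on, and to 1240 to 1563 for Z off against 1215 to 1307 for M off. Marker by marker, 7 read higher and 4 lower in Z on than in M on. In Z off 8 read higher and 3 lower than in M off, and none was called. The part of Alas2 or of the endothelial list in the Serpina12 differences was not tested.

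Orderings without overlap were counted over all probe sets. Z above M in both states held for 0.866% of them and on below off in both lines for 0.415%. Both orderings together held for 14 probe sets (0.0619%), of which Serpina12 was 1. Among the others were Elovl3, a fatty acid elongase, Ecm1, an extracellular matrix protein, and Sdr42e1, a short-chain dehydrogenase, named after their values were seen. By correlation of log2 signal over the 12 arrays, among brighter probe sets, the genes of most similar pattern were Aadat (r = 0.914), which encodes an aminotransferase of tryptophan and lysine breakdown, Spsb4 (r = 0.897), an adaptor of ubiquitin ligases, and Cyp2c70 (r = 0.895), the mouse enzyme that makes muricholic acids. These coefficients come from arrays that share groups and a scale and carry no test. Aadat averaged 1038 for Z on, 1068 for Z off, 630 for M on and 885 for M off. Its log2 difference was -0.05 for Z on from Z off and -0.49 for M on from M off. Spsb4 averaged 65.9 for Z on, 83.2 for Z off, 14.6 for M on and 51.4 for M off. Cyp2c70 averaged 7188 for Z on, 8963 for Z off, 5435 for M on and 6776 for M off.

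**Figure D2:**
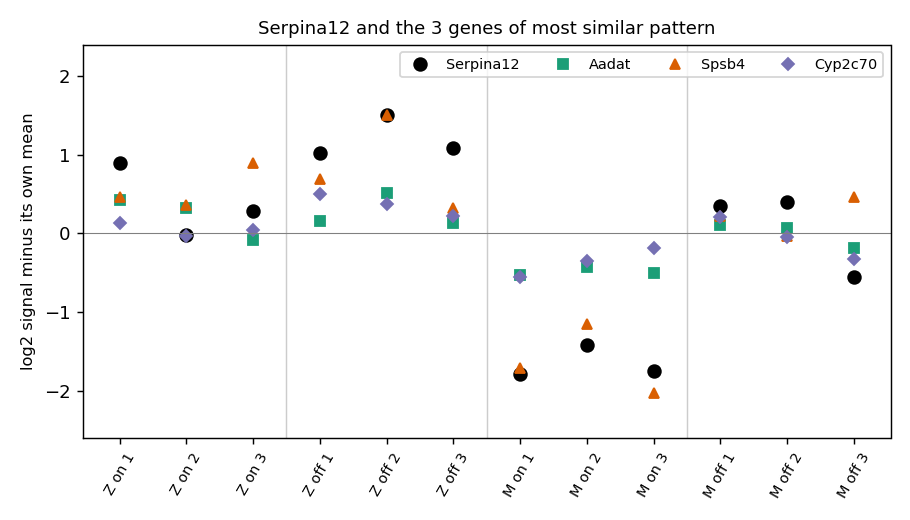
Log2 signal minus the gene's own mean (vertical axis) for Serpina12, Aadat, Spsb4 and Cyp2c70 on the 12 arrays (horizontal axis, in group order). Serpina12 and Spsb4 lie lowest on the 3 M on arrays, and Aadat and Cyp2c70 span a narrower range.

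Serpina12 lies on chromosome 12 in a run of serpin genes, between Serpina9 and Serpina5 among the protein-coding genes of RefSeq (GRCm38.p6, used for order only). The run begins with Serpina10 and Serpina6, passes through the alpha1-antitrypsin genes and ends with Serpina3n. Its other measured genes did not show a called line difference. The log2 difference of the Z line from the M line was 0.00020 for Serpina1c (limma adjusted p = 0.999), -0.0090 and 0.17 for both Serpina1b probe sets, and -0.45 for Serpina6. The names of both Serpina1b probe sets carry the Affymetrix suffix for probes that may match other sequences, so their values are not specific to Serpina1b. Serpina5, the protein C inhibitor, read at most 29.1 on any array and had a log2 difference of 1.52 with an SE of 0.93 (limma adjusted p = 0.676).

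Serpina3n is the acute phase member, an inhibitor of inflammatory proteases related to human antichymotrypsin and induced in mouse liver by inflammation. It read 746, 898 and 1471 for Z on and 504, 787 and 1013 for Z off. It read 486, 677 and 684 for M on and 818, 617 and 639 for M off. The Z groups overlapped and the M groups overlapped, while every Z on array read above every M on array. Its log2 differences were 0.43 for Z on from Z off (SE 0.33, limma adjusted p = 0.874), -0.17 for M on from M off (SE 0.33, adjusted p = 1.00) and 0.71 for Z on from M on (95% interval -0.02 to 1.44, adjusted p = 0.747). The highest reading, 1471, came from Z on replicate 3, the array with the high Saa1 and Lcn2. Without it the Z on difference was 0.15 from Z off and 0.43 from M on. Among the other 11 arrays Saa1 was highest on Z off replicate 2 (1590), where Serpina3n read 787. The genes of most similar pattern over the 12 arrays were Saraf (r = 0.896), a regulator of calcium entry, Chchd1 (r = 0.866) and Tmx2 (r = 0.857).

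**Figure D3:**
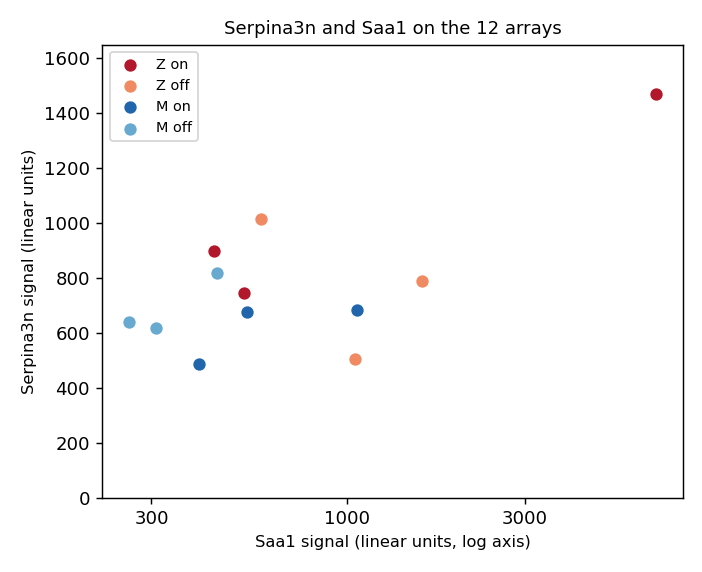
Serpina3n signal (vertical axis, linear units) against Saa1 signal (horizontal axis, log scale) on the 12 arrays, coloured by group. Z on replicate 3, at 6737 for Saa1 and 1471 for Serpina3n, lies apart; the other 11 arrays read between 486 and 1013 for Serpina3n.

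Of the 30 acute phase and interleukin-6 response genes listed, all 30 were measured. In Z on 22 read higher and 8 lower than in Z off, with a median log2 difference of 0.27 against -0.03 over all genes, and none passed the test. Without Z on replicate 3, the array of high Saa1, 13 read higher and 17 lower, with a median of -0.10. In M on 12 read higher and 18 lower than in M off, with a median of -0.07. Saa3, an inducible serum amyloid, read 164 ± 29.6 for Z on and 75.3 ± 12.7 for Z off (SD, n = 3 each; log2 difference 1.12, limma adjusted p = 0.627). Apcs, the serum amyloid P component of mice, read 3882 ± 1877 for Z on and 1603 ± 257 for Z off (SD, n = 3 each; log2 difference 1.16, limma adjusted p = 0.706). Without that array the log2 difference was 1.05 for Saa3 and 0.81 for Apcs.

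Serpina6 encodes corticosteroid-binding globulin, a serpin without inhibitory action that carries glucocorticoids in plasma. It read 2219, 1876 and 1107 for Z on and 1270, 1234 and 1558 for Z off, and 2767, 2219 and 2065 for M on and 1828, 1960 and 1634 for M off. All M on arrays lay above all M off arrays, and all Z off arrays lay below all M off arrays. Z on overlapped Z off, and its replicate 3 had the lowest reading of the 12 arrays. The log2 differences were 0.31 for Z on from Z off (SE 0.26, limma adjusted p = 0.890) and 0.37 for M on from M off (SE 0.26, adjusted p = 1.00). Averaged over states the Z line differed from the M line by -0.45 (95% interval -0.87 to -0.04, limma adjusted p = 0.518), and by -0.31 without Z on replicate 3. Serpina6 ran opposite to Serpina12 across the arrays, at r = -0.66 over 12 arrays, the lowest among the 36 pairs of the 9 genes. The genes of most similar pattern were Ptch1, the hedgehog receptor (r = 0.943), Ppp1r15b (r = 0.906), a phosphatase subunit that reverses eIF2 phosphorylation, and Wee1 (r = 0.900), a cell cycle kinase. Glucocorticoid-responsive genes (14 of 14 measured) gave no call: 9 read higher and 5 lower in Z on than in Z off, and 4 higher and 10 lower in M on than in M off. Pck1, a gluconeogenic enzyme, read 4787 ± 574 for Z on and 1798 ± 1225 for Z off (SD, n = 3 each; limma adjusted p = 0.533). Per1, a clock gene that glucocorticoids induce, read 118 ± 45.6 for Z on and 39.5 ± 15.8 for Z off (SD, n = 3 each; limma adjusted p = 0.577). Per1 went the other way in the M line, at 75.3 ± 28.5 for M on and 111 ± 14.6 for M off. Sgk1, a kinase, read 144 ± 36.1 for M on and 76.3 ± 6.70 for M off (SD, n = 3 each; limma adjusted p = 0.889). Tsc22d3, a glucocorticoid-induced leucine zipper protein, read 229 ± 31.2 for M on and 424 ± 92.0 for M off (SD, n = 3 each; limma adjusted p = 0.892).

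No serpin that restrains clotting or its dissolution passed the test in any comparison. Serpinc1 encodes antithrombin, the main inhibitor of thrombin and factor Xa. It read 8835, 8698 and 8369 for Z on, just below the 9019, 9276 and 9289 of Z off, and the groups did not overlap. In M on it read 11789, 8393 and 8451, and in M off 10356, 9351 and 7849, with overlap. The log2 difference was -0.09 for Z on from Z off (95% interval -0.51 to 0.32, limma adjusted p = 0.962) and 0.05 for M on from M off (95% interval -0.37 to 0.46, adjusted p = 1.00). Its pattern was most like those of Emc8 (r = 0.934), a subunit of a membrane protein insertase, and Apoa1 (r = 0.932), the main protein of high-density lipoprotein.

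Serpind1, heparin cofactor II, inhibits thrombin on dermatan sulfate. It read 3203, 2679 and 2841 for Z on, 2471, 2944 and 2622 for Z off, 3043, 2165 and 2583 for M on and 2725, 3024 and 2592 for M off. The groups overlapped in both lines. Its log2 differences were 0.12 (SE 0.18) for Z on from Z off and -0.11 (SE 0.18) for M on from M off.

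Serpina10, the protein Z-dependent inhibitor of factor Xa, read 2124, 1653 and 3006 for Z on, 1800, 1938 and 2422 for Z off, 1848, 1998 and 2307 for M on and 1848, 2120 and 1819 for M off. The name of its probe set carries the suffix that Affymetrix gives to those that may match several transcripts. Its on and off groups overlapped in both lines, and Z on held both its lowest reading and, on replicate 3, its highest. The log2 differences were 0.11 (SE 0.24) for Z on from Z off and 0.09 (SE 0.24) for M on from M off. Serpina10 and Serpina3n gave the highest correlation among the 36 pairs of members, r = 0.66 over 12 arrays. Over all pairs the median was 0.24, which includes the scale that genes on an array share.

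Serpinf2 encodes antiplasmin, which blocks the clot-dissolving enzyme plasmin. It read 2393, 1982 and 3049 for Z on, 2749, 3172 and 2842 for Z off, 2949, 2576 and 2532 for M on and 3084, 2994 and 2699 for M off. The groups overlapped, with log2 differences of -0.26 for Z on from Z off (SE 0.19, limma adjusted p = 0.871) and -0.12 for M on from M off (SE 0.19, adjusted p = 1.00).

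The targets and cofactors of these serpins were counted next. Of 26 coagulation and fibrinolysis genes listed 24 were measured; 13 read higher and 11 lower in Z on than in Z off, 8 higher and 16 lower in M on than in M off, and none was called. Proz, protein Z itself, read 769 ± 120 for Z on and 568 ± 155 for Z off (SD, n = 3 each; log2 difference 0.46, limma adjusted p = 0.836). Fga, a fibrinogen chain, read 9937 ± 1538 for Z on and 12227 ± 2923 for Z off (SD, n = 3 each; log2 difference -0.28, limma adjusted p = 0.876).

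Serping1, the C1 inhibitor, restrains the classical complement proteases, plasma kallikrein and the contact factors. It read 5304, 4746 and 5672 for Z on, 3665, 5095 and 5248 for Z off, 5532, 5002 and 4638 for M on and 5611, 5649 and 4918 for M off. Z off replicate 1 was its lowest array, and all groups overlapped. The log2 difference was 0.18 for Z on from Z off (95% interval -0.24 to 0.60) and -0.09 for M on from M off (95% interval -0.51 to 0.33). Of 12 classical complement genes listed 10 were measured and none was called; 8 read lower in Z on than in Z off and 7 lower in M on than in M off. C1qb, a chain of the complement-starting C1q, read 147 ± 17.9 for Z on and 203 ± 42.6 for Z off (SD, n = 3 each). C1qc, another chain, read 112 ± 31.7 for Z on and 143 ± 9.51 for Z off (SD, n = 3 each; log2 difference -0.38, limma adjusted p = 0.851).

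Serpinf1 encodes pigment epithelium-derived factor, a secreted serpin that inhibits blood vessel growth and no protease. On its brighter probe set it was the steadiest member, reading from 3187 to 3798 over all 12 arrays, a highest-to-lowest ratio of 1.19. Only 1.35% of the brighter 11313 probe sets had a smaller spread within groups. The log2 difference was 0.04 for Z on from Z off (95% interval -0.31 to 0.38) and -0.03 for M on from M off (95% interval -0.37 to 0.31). Its pattern was most like those of Cpn2 (r = 0.886), a carboxypeptidase N subunit, Pnkd (r = 0.867) and Selenop (r = 0.854), the plasma carrier of selenium.

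A second Serpinf1 probe set did not follow the first, with r = -0.12 between them over 12 arrays. It read 1156, 1740 and 1530 for Z on, 1496, 1995 and 1818 for Z off, 1407, 995 and 1136 for M on and 1343, 1282 and 1275 for M off. Every Z off array lay above every M off array, while Z on and M on overlapped. Averaged over states the log2 difference of the Z line from the M line was 0.38 (95% interval 0.04 to 0.71, limma adjusted p = 0.503), against -0.00053 on the brighter probe set. The estimates of both Serpinf1 probe sets differed, and neither was called between the lines.

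**Figure D4:**
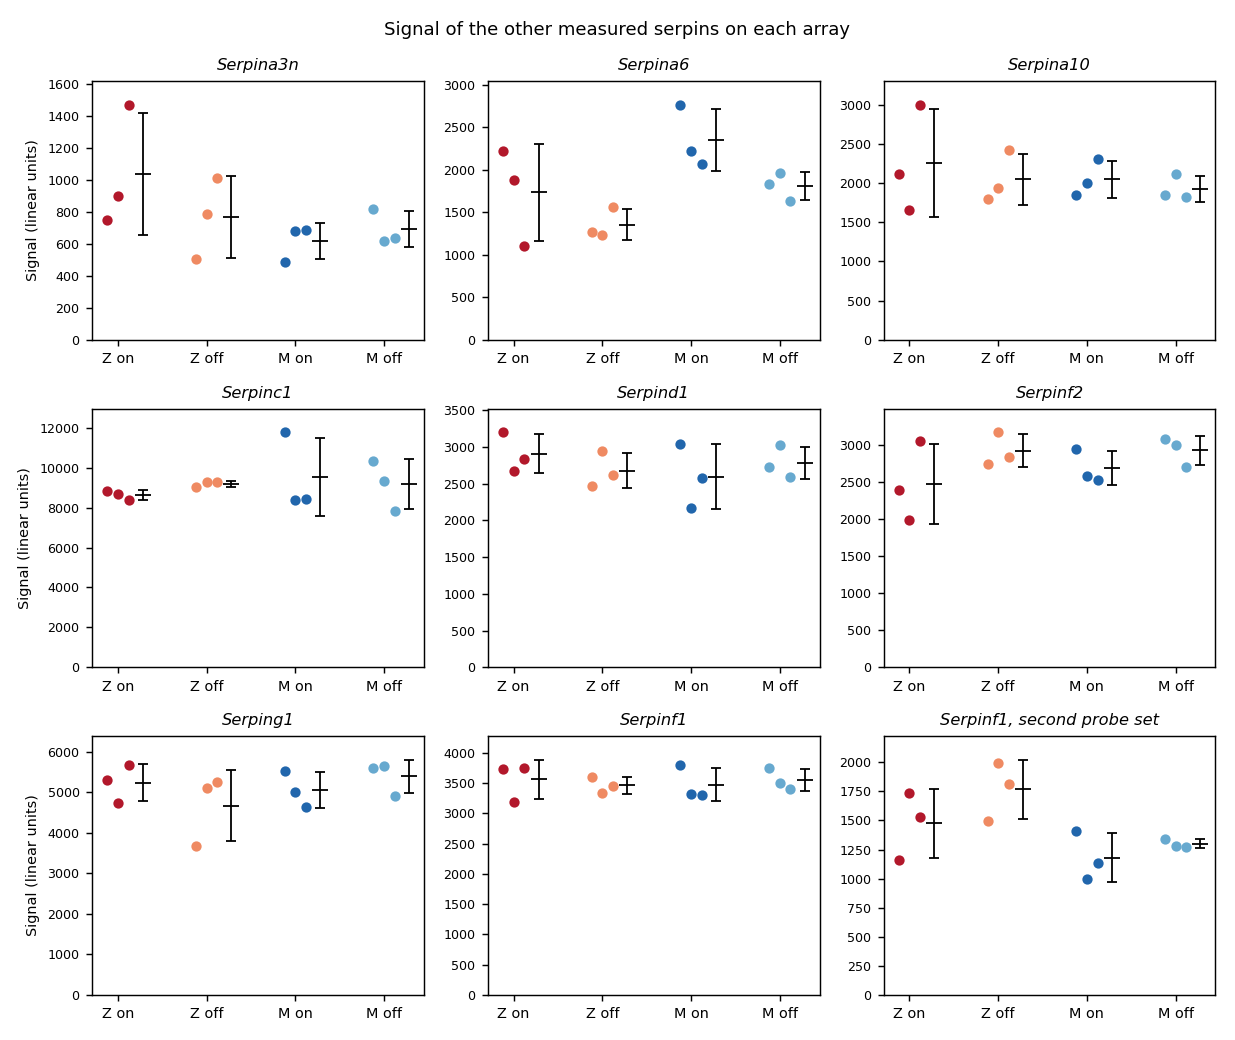
Signal of the other 8 measured serpins on each array (vertical axes, linear units from 0), with both Serpinf1 probe sets; points are arrays, and bars are means with SD. Z on replicate 3 is the highest Serpina3n and Serpina10 array and the lowest Serpina6 array, and the brighter Serpinf1 probe set stays between 3187 and 3798.

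Separations without overlap were counted beside the share of all probe sets. In Z on against Z off, 2 of the 11 probe sets (Serpina12 and Serpinc1) lay lower without overlap, as 6.61% of all probe sets did, and 0 lay higher, against 5.22%. In M on against M off, both Serpina12 probe sets lay lower (5.32% of all) and Serpina6 higher (5.23%). In Z on against M on, Serpina12 and Serpina3n lay higher (6.07%) and 0 lay lower (6.02%). In Z off against M off, Serpina12 and the second Serpinf1 probe set lay higher (8.36%) and Serpina6 lower (6.76%). By limma's adjusted p, 0 of the 11 were called in Z on against Z off (3 of all, 0.0133%), M on against M off (0 of all, 0.0%), the difference of those changes (0 of all, 0.0%), Z on against M on (2 of all, 0.00884%), Z off against M off (16 of all, 0.0707%) or on against off over both lines (2 of all, 0.00884%). With an unadjusted p under 0.05 there were 1, 2, 0, 1, 1 and 2 member probe sets in these comparisons, against 6.29%, 5.18%, 5.18%, 6.85%, 7.73% and 5.84% of all, and 3 between the lines, against 9.09% of all.

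For the 9 probe sets of genes other than Serpina12, log2 differences ran from -0.27 to 0.43 for Z on from Z off and from -0.17 to 0.37 for M on from M off. Their 95% intervals reached at most from -0.75 to 1.16 and from -0.90 to 0.96, and the number of arrays limits this precision.

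**Figure D5:**
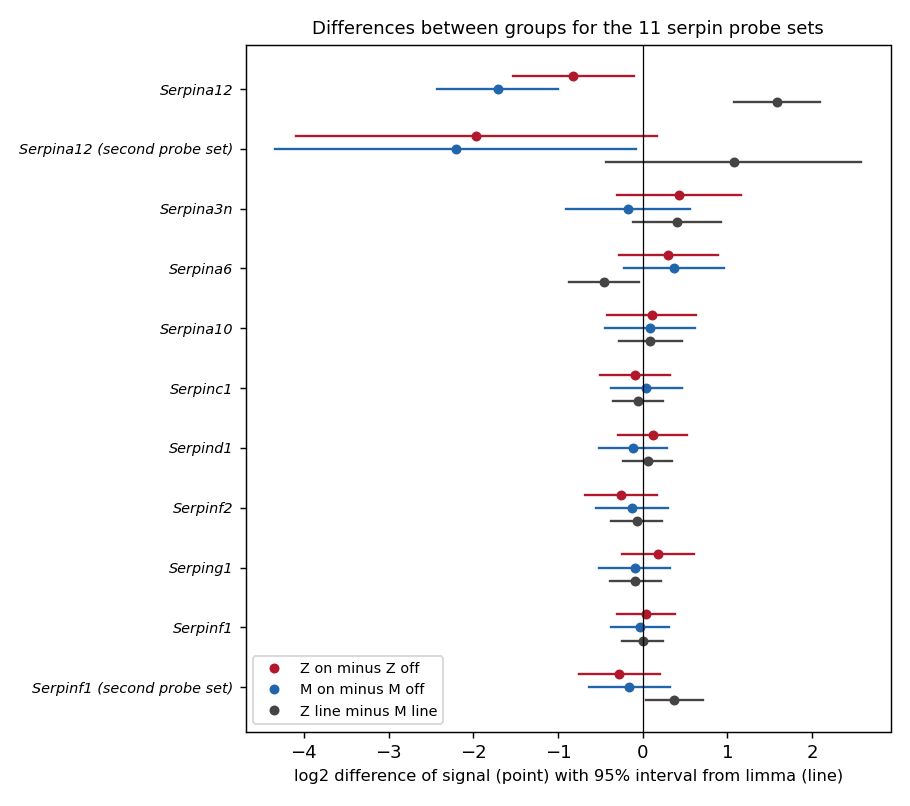
Log2 difference of signal (horizontal axis; point) with its 95% interval from limma (line) for the 11 serpin probe sets for Z on against Z off, M on against M off, and the Z line against the M line averaged over states. Among the line differences, that of the bright Serpina12 probe set at 1.59 lies farthest from 0.

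The rest of the serpin superfamily gave no call. Of 41 further serpin genes listed, 19 had a probe set, of which 12 read higher and 7 lower in Z on than in Z off, with a median log2 difference of 0.39 against -0.03 over all genes. Without Z on replicate 3, 10 read higher and 9 lower, with a median of 0.06. In M on 11 read higher and 8 lower than in M off, with a median of 0.05. The smallest p-values in Z on belonged to dim members such as Serpinb6c, a relative of intracellular inhibitors, which read 14.0 ± 13.6 for Z on and 2.67 ± 0.513 for Z off (SD, n = 3 each; limma adjusted p = 0.704).

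Genes that make and fold secreted serpins were counted in the same way. Of 13 hepatocyte transcription factors measured of 16 listed, 5 read higher and 8 lower in Z on than in Z off, and 6 higher and 7 lower in M on than in M off. Atf5, a stress-responsive activator, read 574 ± 185 for Z on and 1123 ± 279 for Z off (SD, n = 3 each; limma adjusted p = 0.671). Foxa3, a hepatocyte forkhead factor, read 445 ± 40.6 for M on and 343 ± 26.5 for M off (SD, n = 3 each; limma adjusted p = 1.00). Foxa3 went the other way in the Z line, at 403 ± 81.9 for Z on and 473 ± 117 for Z off. Nr0b2, a bile acid-induced repressor, read 328 ± 140 for Z on and 655 ± 119 for Z off, and 349 ± 130 for M on and 499 ± 47.5 for M off (SD, n = 3 each). Of 29 genes of folding and export in the endoplasmic reticulum, 22 read lower in Z on than in Z off, with a median log2 difference of -0.18 (25 lower without Z on replicate 3), and 17 lower in M on than in M off, with a median of -0.07. Syvn1, the ubiquitin ligase that marks misfolded proteins for degradation, read 238 ± 35.8 for Z on and 442 ± 30.6 for Z off (SD, n = 3 each; log2 difference -0.90, limma adjusted p = 0.443). Canx, the lectin chaperone calnexin, read 1075 ± 108 for M on and 1375 ± 65.2 for M off (SD, n = 3 each; log2 difference -0.36, limma adjusted p = 0.974). Canx went the other way in the Z line, at 1375.5 ± 60.2 for Z on and 1234 ± 164 for Z off. Creld2, also on this list, read 264 ± 40.7 for Z on and 596 ± 174 for Z off. It went the other way in the M line, at 489 ± 172 for M on and 338 ± 22.3 for M off. Other abundant plasma proteins of hepatocytes (12 of 15 measured) had medians of -0.04 in both comparisons, and Z on exceeded Z off for 3 of them (8 without Z on replicate 3). Among them Itih1, an inter-alpha-trypsin inhibitor chain, read 1405 ± 79.6 for Z on and 2162 ± 126 for Z off (SD, n = 3 each; log2 difference -0.62, limma adjusted p = 0.668). Circadian clock genes (17 of 19 measured) gave no call either; 10 read higher and 7 lower in Z on than in Z off. An unadjusted p under 0.05 was reached by 9 of the 17 in Z on against Z off (6.29% of all probe sets), 9 in Z off against M off (7.73%), 7 between the lines (9.09%) and 8 in on against off (5.84%). Their part in the serpin results was not tested.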

How the data were processed

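The deposited intensities are linear probe set signals, 1 column per array. The submitters' processing notes name RMA, but the deposited intensities reach 37251.7, are not on a log scale and share a trimmed mean (2% removed at each end) of about 150.1 with medians from 38.8 to 47.2, as array-wise scaling gives. The 64 control probe sets were left out, 1 value of 0 was set to 0.1, and log2 was taken with no further normalization or filter. Gene names came from the platform annotation (20380 probe sets with 1 symbol, 691 with several, 1555 with none); RefSeq changed 0 symbols. Promoters are RefSeq's (GRCm38.p6).

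Group means over the 12 arrays were estimated together in limma 3.58.1 under R 4.3.3 (lmFit, eBayes, two-sided), and p-values of 7 contrasts were adjusted by Benjamini-Hochberg over 22626 probe sets, with a call at 0.05. The code of the fit was checked on simulated data with independent noise. That simulation held no differences shared by an array, so it does not bear on the calls made here. A gene with several probe sets is led by the one of highest mean. Genes named from the pathway lists are among the 2 of smallest p in each on against off comparison, and not all of these are printed; Alas2 is named because it was called. The members and lists were chosen with earlier results of these data known. Nothing shows that replicates came from separate litters or cages, so p-values measure the spread between these animals.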

Additional observations from a re-analysis of the deposited data

How the results depend on the processing

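The alternatives were quantile normalization, centred array medians, log2(signal + 16), an intensity trend with robust variances, the brighter 11313 probe sets, only the groups compared, a replicate block and leaving out each array. For 36 single differences, 474 of 504 alternative values kept their direction and side of the threshold. Sign changes touched 6 results near 0. Serpinf1 in Z on from Z off was -0.013 with quantile normalization. With 1 array left out, the ranges were -0.0048 to 0.11 for Serpinf1 and -0.12 to 0.31 for Serpina10 in Z on from Z off, and -0.0024 to 0.16 for Serpina10, -0.12 to 0.14 for Serpinc1, -0.23 to 0.015 for Serpind1 and -0.098 to 0.0072 for Serpinf1 in M on from M off. The Serpina12 line difference was 1.58 with quantile normalization and 1.55 with centred medians, both no longer past the threshold, and 1.43 to 1.69 with 1 array left out. Serpina12 newly passed with an intensity trend in M on from M off (-1.71), Z on from M on (2.03) and on from off (-1.27), and in Z on from M on with log2(signal + 16) (1.96) and with the brighter probe sets (2.03). So 1 serpin probe set was called in each of these 5 cases, and 0 in the line comparison with quantile normalization, centred medians, the replicate block or any array left out. The cause was not tested.

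Same-numbered arrays of different groups did not deviate together (correlations from -0.083 to 0.16; 1 of 12 arrays correlated best with its own number in every other group), so the numbers were not taken as pairs. With the replicate block the Serpina12 line difference was 1.59 (adjusted p = 0.115), and the calls over all probe sets were 1 in Z on from Z off, 0 in Z on from M on, 6 in Z off from M off, 12 between lines and 1 in on from off.

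Calls over all probe sets moved elsewhere too. In Z on from Z off they were 1 with centred medians, log2(signal + 16) or the brighter probe sets, 8 with an intensity trend, 0 with only those groups, and 2 to 5 with 1 array left out. In M on from M off they were 2 with quantile normalization or the brighter probe sets, 5 with centred medians, 3 with log2(signal + 16), 8 with an intensity trend, and 0 to 2 with 1 array left out. For the difference of those changes they were 1 with centred medians, log2(signal + 16) or the brighter probe sets, 2 with an intensity trend, and 0 to 2 with 1 array left out. In Z on from M on they were 9 with quantile normalization, 10 with log2(signal + 16), 22 with an intensity trend, 20 with the brighter probe sets, 0 with only those groups, and 0 to 5 with 1 array left out. In Z off from M off they were 51 with an intensity trend, 33 with the brighter probe sets, 0 with only those groups, and 1 to 6 with 1 array left out. Between lines they were 41 with log2(signal + 16), 110 with an intensity trend, 87 with the brighter probe sets, and 7 to 18 with 1 array left out. In on from off they were 4 with log2(signal + 16), 17 with an intensity trend, 5 with the brighter probe sets, and 0 to 5 with 1 array left out. Dim signals, such as the second Serpina12 probe set, are the least certain on the log2 scale. Leaving out Z on replicate 3 was applied to the gene lists after seeing the data. In 3 of 9 lists this changed, by over 1.5 times, how many genes had a positive log2 difference for Z on from Z off: 13 instead of 22 for the acute phase, 4 instead of 7 for folding and export, and 8 instead of 3 for other plasma proteins.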
